A study of Mus musculus with 18 samples.

Results

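Inflammatory monocytes and recruited macrophages of mouse skin were chosen by their transcripts, cell by cell, and numbered 2307 of 47251 kept cells. Kept cells were barcodes with at least 200 genes, at least 500 unique molecular identifiers (UMIs, each standing for 1 captured mRNA molecule) and at most 10% of UMIs from mitochondrial genes. A member carried at least 1 UMI of the macrophage receptors Csf1r, Fcgr1 and Adgre1 together. It also had at least 3 UMIs over Ly6c2, Chil3, Plac8 and Msr1 and under 2 UMIs over the resident macrophage genes Cd209f, Ccl24, Folr2 and Cd163. Cells with 2% or more of their UMIs from the neutrophil genes S100a8 and S100a9, any UMI of the T cell genes Cd3d, Cd3e and Cd3g, or 1% or more from the collagen genes Col1a1 and Col1a2 were left out. Since these values selected the cells, the levels of the rule's genes are given as a description only. At the limits of the rule, 181 members had exactly 3 UMIs over the 4 marker genes, and 262 cells had 2 and met every other limit. Of the members, 464 carried 1 UMI of the resident genes, and 218 cells carried exactly 2 and met every other limit.

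Every mouse had surgery, an incision on the back by the tail from which a path under the skin was opened towards the neck. Expanded mice received a hydrogel expander under the skin near the neck, which swells and stretches it, and control mice received the surgery alone. Skin was collected on day 1, 2 or 4, and living cells were sorted and measured by droplet-based 3′ mRNA sequencing. Each of the 10 libraries pooled the control or the expanded mice of 1 sequencing round, with 5 libraries per arm: 2 rounds on day 1, 2 rounds on day 2 and 1 round on day 4. In every round but day 1 round 1, antibody barcodes (hashtags) named the mouse of a cell, which gave 14 control and 14 expanded mice. Strain, sex and age of the mice are not given in the sources used here. Below, the 5 values of an arm follow the order day 1 round 1, day 1 round 2, day 2 round 1, day 2 round 2 and day 4.

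Classical monocytes leave the bone marrow through the chemokine receptor CCR2, circulate in blood with high Ly6C, and enter injured tissue, where they mature into macrophages. In wounded skin the recruited cells clear debris and microbes, and later supply growth factors and enzymes that reshape the matrix. Resident dermal macrophages are a separate population, largely settled before injury, that is marked by genes such as Folr2 and Cd163.

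The shares of the rule's own genes describe how the members met the rule and do not bear on their name. Such shares also depend on depth, and members were deeper in expanded libraries. Msr1, a scavenger receptor, had a UMI in 64.8% to 79.2% of the members of a control library and in 94.2% to 98.6% of those of an expanded one. Ly6c2, the Ly6C antigen of classical monocytes, was found in 15.8% to 40.1% and 39.1% to 65.0% of members respectively. Classical monocyte genes outside the rule, 10 genes with Ccr2, Vcan and Lyz2 among them, summed to 8456 to 16779.6 CPM (a gene's UMIs relative to all UMIs of the summed members, on the usual CPM scale) in control and 5824 to 12056 CPM in expanded libraries. The sum of these monocyte genes was higher with expansion in 1 of 5 pairs and lower in the others. Dendritic cell genes summed to at most 294 CPM and T or NK cell genes to at most 67.3 CPM. Plasmacytoid dendritic cell genes summed to 424 to 643 CPM in control and 315 to 471 CPM in expanded libraries, and Langerhans cell genes to 44.8 to 254 and 140.3 to 203 CPM. Neutrophil genes, 10 of 11 detected and Camp at 0, summed to 157 to 586 CPM in control and 599.6 to 1404 CPM in expanded members and were higher in all 5 pairs of libraries. Members without any UMI of S100a8 and S100a9 were 86.5% to 100% of those of a control library and 36.0% to 63.8% of those of an expanded one. Fibroblast genes summed to 604 to 2677 and 213 to 834 CPM, keratinocyte genes to 5.6 to 1407 and 14.7 to 1323 CPM. Erythrocyte genes stayed at or below 36.6 CPM except in the expanded libraries of day 2, at 1168 and 1216 CPM. Members had a median of 6440.5 to 9090.5 UMIs in control and 8200 to 16338 UMIs in expanded libraries, and 98 of them carried the hashtags of more than 1 mouse. Any 2 libraries shared at most 23 cell barcodes, of which at most 1 was a member in both.

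The members made up a larger part of the cells from expanded skin. They were 0.755, 0.626, 0.87, 5.44 and 2.16% of the kept cells in the control libraries and 2.34, 4.81, 21.1, 11.7 and 12.2% in the expanded libraries. In each of the 5 pairs the expanded library was the higher one, but the control library of day 2 round 2 lay above 2 of the expanded ones, so the arms overlapped. The mean was 1.97% ± 2.04 (SD, n = 5) against 10.4% ± 7.35 (SD, n = 5), a difference of 8.47 percentage points (exact two-sided permutation test, p = 0.0317, where 0.00794 is the smallest p possible). Adjusted over the 3 shares tested across libraries, p was 0.0952, and a sign-flip permutation over the 5 pairs gave p = 0.0625, the smallest it can give. Among cells with at least 1 UMI of Ptprc, which encodes the leukocyte antigen CD45, the members were 3.16, 2.59, 2.91, 16.6 and 8% in control and 11.2, 14.5, 36.8, 27 and 31% in expanded libraries. Without the control library of day 1 round 1, day 1 round 2, day 2 round 1 or day 4 the permutation p rose to between 0.0714 and 0.0794. With every cell thinned to 2000 UMIs before the rule, the difference was 5.28 points (exact permutation p = 0.0317), beside members that were deeper in expanded libraries.

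Single mice showed the same direction on days 2 and 4. Members were 4.14% ± 4.15 (SD, n = 14) of a control mouse's cells and 16.6% ± 10.4 (SD, n = 14) of an expanded mouse's cells, with a difference within rounds of 12.9 points (two-sided permutation test of 100000 resamples, p = 0.0003). The mice of an arm and round shared 1 library, so tests over mice do not cover differences between libraries. On day 4 the control mice had 3.74%, 4.14%, 3.02% and 3.11% and the expanded mice 29.4%, 20.2%, 8.38% and 10.2%, with no overlap (exact permutation p = 0.0286, the smallest possible, and 0.0429 adjusted over the 3 days). On day 2 the control mice ran from 0.517% to 13.8% with a median of 2.95%, and the expanded mice from 7.12% to 31.9% with a median of 22.8% (exact permutation within rounds, p = 0.0114, adjusted 0.0343). Here the mice overlapped, since 2 control mice of round 2 had 12.8% and 13.8% and 2 expanded mice of that round 11.5% and 7.12%. On day 1 the control mice had 2.03%, 1.61% and 0.484% and the expanded mice 0.562%, 1.51% and 13.4%. A single expanded mouse thus stood apart on day 1 and the test over 3 against 3 mice gave an exact permutation p of 0.8, where the smallest possible is 0.1. That mouse supplied 266 of the 274 members of its library that were assigned to a mouse.

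**Figure D1:**
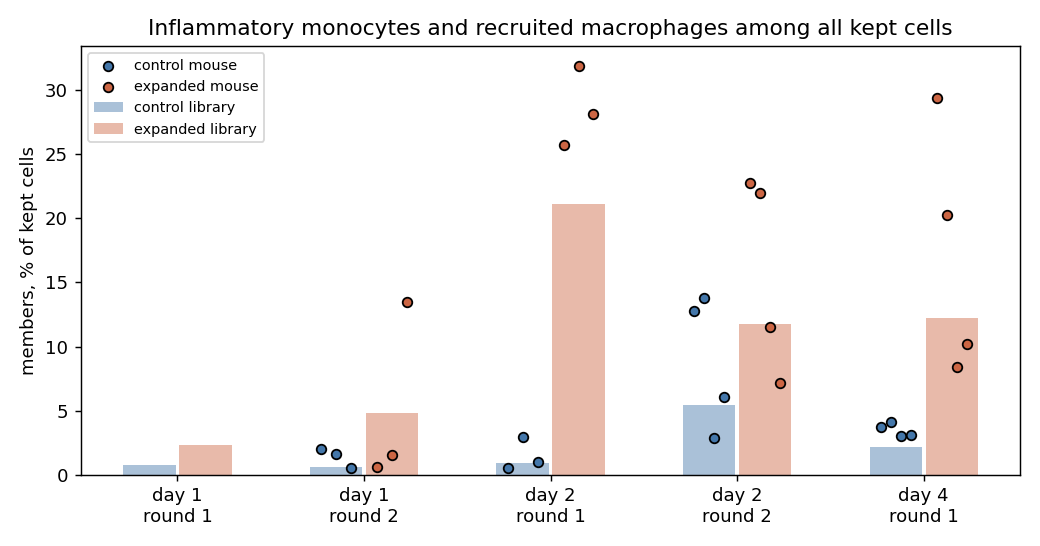
Members as a percent of kept cells by day and round, with 1 bar per pooled library and 1 point per hashed mouse (control beside expanded). The expanded bar is the higher of each pair, and on day 1 round 2 a single expanded mouse at 13.4% stands above the other 2 at 0.562% and 1.51%.

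Resident macrophages, chosen by the mirrored rule with at least 2 UMIs of the resident genes and under 3 of the 4 marker genes, went the other way, which is given without a test. They were 11.1, 7.05, 11.8, 3.71 and 5.95% of kept cells in control and 1.73, 0.919, 0.914, 0.311 and 1.26% in expanded libraries, with every expanded library below every control library. Cells with at least 2 UMIs of the resident genes and at least 3 of the marker genes, 1053 in all, were in neither population. Such cells numbered 85, 28, 17, 137 and 59 in control and 76, 63, 395, 105 and 88 in expanded libraries. Residents numbered 648, 586, 257, 217 and 447 in control and 51, 54, 31, 6 and 43 in expanded libraries. The part of the marker limit in the lower resident share was not tested. Among all cells that met the limits on receptors, neutrophil, T cell and collagen transcripts, whatever their other markers, the members were 4.29, 4.55, 4.5, 27.2 and 11.5% in control and 22.9, 44.1, 55.1, 53.8 and 57.3% in expanded libraries. A share rises when other cells are fewer, so the 2 shares are not independent of each other.

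The makeup of the members differed between libraries more than between arms. Members that held at least 3 UMIs of Ly6c2 and Plac8 together, the monocyte genes of the rule, were 36.4, 53.8, 36.8, 41.5 and 63% of members in control and 33.3, 23.7, 60.2, 68.1 and 55% in expanded libraries; the others needed Chil3 or Msr1 to reach the limit. The means were 46.3% ± 11.7 and 48.1% ± 18.8 (SD, n = 5 each), 1.77 points apart (exact permutation p = 0.873), and the expanded library of day 1 round 2 was the lowest of all. When each cell was first thinned to 2000 UMIs, the difference was -17.6 points (exact permutation p = 0.183). Cycle genes were rare at equal depth: with every member thinned to 2000 UMIs, 0% to 11.1% in control and 1.12% to 2.64% in expanded libraries carried at least 3 UMIs of S and G2M genes. Without thinning the shares were 19.8% to 36.8% in control and 32.2% to 59.4% in expanded libraries, and the difference had the other sign, 13.6 points (exact permutation p = 0.0556). The control libraries with the highest shares had 3 of 52 and 2 of 18 such cells, and the means of 4.33% ± 4.31 and 1.90% ± 0.663 did not separate (SD, n = 5 each, exact permutation p = 0.310). The difference was -3.51 points (exact permutation p = 0.0397) once the control library of day 1 round 1, in which no cycling member was found, was set aside.

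Expanded members had more transcripts of Arg1, Saa3, Wfdc21, Spp1, Timp1 and of several glycolytic enzymes, and fewer of Tnip3. Between mice, expanded members also had fewer transcripts of MHC class II and C1q, while most chemokines and cytokines were not called different. Gene levels were compared on UMIs summed over the members of each library, and again over the members of each mouse, with edgeR's quasi-likelihood test and Benjamini-Hochberg adjustment over all genes tested. The library comparison had 4 control libraries, since that of day 2 round 1 held 19 members and was left out of the fit, and 5 expanded ones. It called 91 of 9195 genes (0.99%), 39 higher (0.424%) and 52 lower (0.566%) with expansion. The count rested on single libraries: it was 1 without the control library of day 2 round 2 or the expanded library of day 4, and 2 without the control library of day 4 or that of day 1 round 1. It was 51 without the control library of day 1 round 2, 40 without the expanded library of day 2 round 1, and 199 without the expanded library of day 1 round 1. The mouse comparison had 10 control and 12 expanded mice with at least 20 members each and called 865 of 6298 genes (13.7%), 440 higher (6.99%) and 425 lower (6.75%). All mice of an arm and round shared 1 library, so in the mouse comparison a difference between libraries cannot be told apart from the arm. In this comparison the 3 expanded mice of day 2 round 1 had no control mouse beside them, and day 1 rested on 1 expanded mouse. Within day 2 round 2 alone it called 291 of 6359 genes (4.58%), within day 4 alone 147 of 4623 (3.18%). Without the mice of day 2 round 2 it called 281 genes and without those of day 4 it called 232. Of 66 library calls that both comparisons tested, 62 were also called between mice, all with the same sign, from cells that overlap. With each day and round as a replicate block 13 of the 35 library calls followed were lost, at adjusted p of 0.0513 to 0.101, among them those of Spp1, Fabp5, Ifit3, Coch, Slamf7, Cd34, Gdf15, Fxyd2 and Adam23. The median log2 fold change over all genes was 0.02 for libraries and 0.01 for mice. The levels of 5 expanded libraries lay entirely above those of the 5 control libraries for 2.98% of genes and entirely below for 1.5%. In what follows, values with ± are log2 fold changes of expanded over control with their SE, single values in parentheses are log2 fold changes between mice unless libraries are named, and a gene said to rise or fall had an adjusted p under 0.05. Counts of calls within a gene list stand beside the 6.99% higher and 6.75% lower of all genes between mice. No list was tested as a set.

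Arg1 and Spp1, 2 genes of wound macrophages, were among the largest rises. Arg1, the enzyme that turns arginine into ornithine and urea, was nearly absent from control members, at 0, 0, 0, 1.31 and 1.48 CPM, and stood at 8.56, 6.81, 105, 8.62 and 257 CPM in expanded members. Every expanded library was above every control library, and those of day 2 round 1 and day 4 were far above the rest. The log2 fold change was 6.29 ± 1.07 (SE, adjusted p = 0.0277), with only 6 Arg1 UMIs in all control members, and too few mice had Arg1 for the test between mice. The library call of Arg1 was lost in 7 of 21 alternatives (edgeR adjusted p up to 0.249). Arg1 was found in 203 of 1712 expanded members (11.9%) and in 4 of 595 control members (0.672%), while T cells, which should lack it, had it in 0% to 0.746% of the cells of a library. It varied between animals: on day 4 the 4 expanded mice had 563, 106, 0 and 40.4 CPM. No other cell group compared, fibroblasts, keratinocytes, endothelial cells, neutrophils, T cells or resident macrophages, had a mean above 4.77 CPM of Arg1.

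Spp1, which encodes the secreted adhesion protein osteopontin, was at 328, 40.4, 291, 145 and 151 CPM in control and 986, 2903, 1148, 589 and 611 CPM in expanded libraries. The arms did not overlap, and the expanded library of day 1 round 2 was the highest. The log2 fold change was 2.75 ± 0.54 between libraries (SE, adjusted p = 0.0453) and 2.44 ± 0.39 between mice (adjusted p = 0.000426). The library call was lost with the pair as a replicate block (2.55, adjusted p = 0.0945), and the mouse call was kept in 8 of 8 alternatives. T cells of the same libraries averaged 52.5 CPM of Spp1 in control and 710 CPM in expanded libraries. A Spp1 UMI was found in 4.17% to 14.6% of the T cells of a control library and 5.35% to 11.0% of those of an expanded one. Among members these shares were 9.62% to 36.8% and 33.3% to 68.3%. The part of free RNA in the members' level was not tested. Fabp5, a fatty acid-binding protein, was at 509, 603, 353, 1306 and 1166 CPM in control and 1198, 3589, 3899.7, 1995 and 3815 CPM in expanded libraries, which overlapped at the expanded library of day 1 round 1 (log2 fold change 1.65 ± 0.33, adjusted p = 0.0482, or 0.0519 with the block, and 1.43 ± 0.27, adjusted p = 0.00144, between mice). The list of 19 wound and lipid genes had 18 tested between mice, with 5 higher and 1 lower and a median log2 fold change of 0.35. The others that rose were the lysosomal protease Ctsl (1.72, adjusted p = 0.00479), the glycoprotein Gpnmb (1.28, adjusted p = 0.0129) and the lectin Lgals3 (0.60, adjusted p = 0.00122), and Abcg1, a cholesterol exporter, fell (-0.63, adjusted p = 0.0271). In day 2 round 2 alone Fabp5 gave 0.89 (adjusted p = 0.16) and Gpnmb 0.80 (adjusted p = 0.28), and on day 4 alone Ctsl gave 1.43 (adjusted p = 0.221). Trem2, the lipid receptor often used to mark such macrophages, gave 0.24 ± 0.58 with an adjusted p of 0.84, and Apoe gave -1.10 ± 0.45 with 0.11.

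Of the matrix and protease genes, 6 of 19 tested between mice rose. Timp1, the secreted inhibitor of matrix metalloproteinases, was at 46.5, 61.9, 33.6, 37.9 and 56.1 CPM in control and 198, 186, 198, 133 and 134 CPM in expanded libraries, with no overlap (log2 fold change 1.72 ± 0.21, adjusted p = 0.0141, and 1.25 ± 0.23, adjusted p = 0.00116, between mice). It was found in 15.9 to 22% of the members of a control library and 36.1 to 62.3% of those of an expanded one. Timp1 was also higher outside the members, since T cells averaged 19.7 and 129.8 CPM and fibroblasts 111 and 422 CPM in control and expanded libraries. Tgfbi, a matrix protein induced by TGF-beta, was at 719, 640.2, 1416, 1111 and 779.9 CPM in control and 2771, 1729, 1562, 1685 and 1799.9 CPM in expanded libraries. They did not overlap, and the fold change was 1.16 ± 0.21 (adjusted p = 0.0359) and 0.98 ± 0.17 between mice (adjusted p = 0.000646). Of 26 growth factor, protease and matrix genes, 19 were tested between mice, with 6 higher, 2 lower and a median of 0.18. Inhba, the activin A subunit, rose by 1.53 ± 0.48 (adjusted p = 0.0375), as did the proteases Mmp8 (1.72) and Mmp14 (0.82) and the clotting factor F10 (0.50). Mmp8 is also among the 11 neutrophil genes, whose sum was higher in expanded members in all 5 pairs, and the part of neutrophil RNA was not tested. The protease Mmp19 (-0.93, adjusted p = 0.00842) and the vascular growth factor Vegfa (-0.43, adjusted p = 0.0483) fell. Inhba differed by library, from 7.61 CPM in the expanded library of day 1 round 1 to 483 CPM in that of day 4, and neutrophils averaged 213 CPM in expanded libraries. Inhba gave 0.97 (adjusted p = 0.49) without the mice of day 4 and 0.41 (adjusted p = 0.774) in day 2 round 2 alone. Without the mice of day 2 round 2 Timp1 gave 0.99 (adjusted p = 0.0671) and Mmp8 1.16 (adjusted p = 0.39), and without those of day 4 Mmp14 gave 0.57 (adjusted p = 0.396). In day 2 round 2 alone Tgfbi gave 0.66 (adjusted p = 0.186), and Vegfa lost its call in 5 of 8 alternatives (adjusted p up to 0.31).

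**Figure D2:**
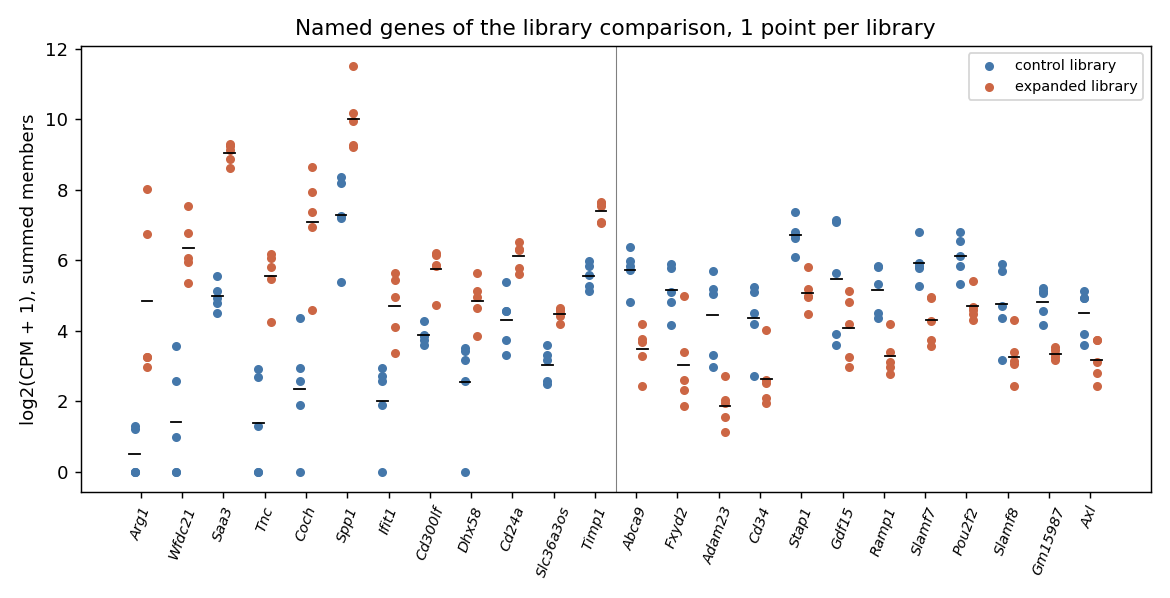
Levels of the 24 genes named from the library comparison as log2(CPM + 1), with 1 point per library, a line at each arm's mean and the genes that rose to the left of those that fell. Saa3 and Arg1 of the expanded libraries lie above every control library, and Abca9 and Stap1 below.

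Of the secreted defence genes, 5 of 10 tested between mice rose, and in some libraries most Saa3 came from few cells. Saa3, an acute phase apolipoprotein, was at 29.4, 21.5, 33.6, 26.4 and 45.8 CPM in control and 557, 393, 465, 598 and 629.6 CPM in expanded libraries. The arms were far apart, with a log2 fold change of 4.07 ± 0.21 between libraries (adjusted p = 1.63e-05, kept in 22 of 23 alternatives and lost among the members with under 3 UMIs of Ly6c2 and Plac8, at 0.163) and 2.73 ± 0.68 between mice (adjusted p = 0.0101). Without the mice of day 2 round 2 the adjusted p between mice was 0.205. Saa3 was found in 28.9 to 33.4% of expanded and 3.85 to 9.88% of control members, and the 5 cells richest in it held 32.2 to 79.7% of its UMIs in an expanded library. A single cell held 1546 of 2292 UMIs on day 2 round 2, and another 2148 of 3333 on day 4. Without the 5 richest cells the expanded libraries had 239.6, 273, 254, 125 and 169 CPM, still above every control library. Members with 1 mouse's hashtag had 196 and 225 CPM in these 2 libraries, and the remaining members, with more than 1 hashtag or none, 14500.4 and 3739 CPM. T cells averaged 15.1 CPM of Saa3 in control and 180.5 CPM in expanded libraries. A Saa3 UMI was found in 1.22% to 5.88% of the T cells of a control library and 1.95% to 5.12% of those of an expanded one. Fibroblasts averaged 783 CPM of Saa3 in expanded and 146 CPM in control libraries, and the part of their RNA in this result was not tested beyond these values. The matrix genes Coch and Tnc, which fibroblasts express, also passed the library test (3.56 ± 0.69 and 3.61 ± 0.56), but 5 cells per expanded library held 81.7 to 99.4% and 85.2 to 100% of their UMIs, and without those cells no expanded library was above 22.9 and 8.26 CPM.

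Wfdc21, a small secreted WAP-domain protein, was at 4.89, 10.8, 0, 0.979 and 0 CPM in control and 60.9, 66.1, 109, 185 and 40.2 CPM in expanded libraries. The arms did not overlap, and the fold changes were 5.58 ± 0.68 (adjusted p = 0.0141) and 6.17 ± 0.81 between mice (adjusted p = 4.06e-05). The control libraries held 2, 4, 0, 3 and 0 UMIs of Wfdc21, so the size of these fold changes rests on few control UMIs. Without the mice of day 2 round 2 the mouse value was 3.82 (adjusted p = 0.0656). Of the 17 secreted defence and S100 genes, 10 were tested between mice, with 5 higher and none lower and a median of 1.01. Lcn2, which binds bacterial iron carriers, rose by 3.49 ± 0.78 (adjusted p = 0.00458), the glycoprotein Lrg1 by 2.39 ± 0.68 (adjusted p = 0.0225) and Wfdc17, another WAP-domain gene, by 1.01 ± 0.18 (adjusted p = 0.00106). Lcn2 gave 1.15 (adjusted p = 0.407), Lrg1 1.74 (adjusted p = 0.296) and Wfdc17 0.66 (adjusted p = 0.114) without the mice of day 2 round 2. Neutrophils, whose summed marker genes were also higher in expanded members, averaged 1679.8 CPM of Wfdc21, 1648 CPM of Lcn2 and 3628 CPM of Spp1 in expanded libraries. Among members with under 0.5% of S100a8 and S100a9 the log2 fold change between libraries was 5.42 for Wfdc21 (adjusted p = 0.00838) and 2.74 for Spp1 (adjusted p = 0.0576).

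Of 14 classical monocyte genes, all tested between mice, 5 rose and 1 fell, with a median of 0.48. Ccr2, the receptor for the chemokine CCL2, was at 345, 231, 364, 411 and 369 CPM in control and 898, 537, 595, 713 and 477 CPM in expanded libraries. The arms did not overlap, yet the library test did not call it (0.82 ± 0.22, adjusted p = 0.11), whereas the mouse test did (0.69 ± 0.16, adjusted p = 0.00674). Without the mice of day 2 round 2 the value was 0.52 (adjusted p = 0.166). Vcan, the proteoglycan versican, was at 355, 463, 285, 530.5 and 174 CPM in control and 1180, 1021, 914, 1093 and 452 CPM in expanded libraries and overlapped through the expanded library of day 4 (log2 fold change 1.19 ± 0.15, adjusted p = 0.0141, and 1.14 ± 0.29, adjusted p = 0.011, between mice). The genes that rose included the haemoglobin-binding protein Hp (1.92, adjusted p = 0.00549) and the integrin Itgam (0.76, adjusted p = 0.0245). Lyz2, a lysozyme, fell (-0.76, adjusted p = 0.0308). Itgam gave 0.49 (adjusted p = 0.369), Hp 1.28 (adjusted p = 0.212) and Vcan 1.12 (adjusted p = 0.145) without the mice of day 2 round 2. Lyz2 gave -0.65 (adjusted p = 0.351) without the mice of day 4 and -0.12 (adjusted p = 0.659) in day 2 round 2 alone. The chemokine receptor Ccr1 rose (0.52, adjusted p = 0.0318), and the interferon-gamma receptor chain Ifngr1 fell (-0.70, adjusted p = 0.0199). Of 15 tested chemokine and growth factor receptors 2 were higher and 2 lower.

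Glycolytic enzymes rose by modest amounts. Pkm, pyruvate kinase, was at 551, 492, 409, 596 and 502 CPM in control and 983, 1565, 1174, 1133 and 1188 CPM in expanded libraries, with no overlap (log2 fold change 1.11 ± 0.16, adjusted p = 0.0166). Over mice it ran from 356 to 754 CPM in control and from 728 to 1606 CPM in expanded animals (1.03 ± 0.13, adjusted p = 4.06e-05, kept in 8 of 8 alternatives). Pkm was spread over the members, with a UMI in 97.4 to 100% of expanded and 88.5 to 95.5% of control members. Eno1, enolase, was at 83.2, 110.3, 78.3, 129 and 93.1 CPM in control and 235, 245, 235, 393 and 148 CPM in expanded libraries, again without overlap (1.09 ± 0.21, adjusted p = 0.0426, and 1.08 ± 0.14, adjusted p = 4.43e-05, between mice). Of the 22 glycolysis and hypoxia genes, 20 were tested between mice, and 9 were higher and none lower with a median of 0.40. The enzymes Hk3 (0.93), Pgk1 (0.57), Gapdh (0.46), Aldoa (0.45), Tpi1 (0.43) and Ldha (0.29) and the mitophagy receptor Bnip3 (1.19) were the others. Hif1a, the hypoxia-inducible factor, was not called (0.41 ± 0.16, adjusted p = 0.0967). On day 4 alone Eno1 gave 0.52 (adjusted p = 0.139) and Pgk1 0.36 (adjusted p = 0.332), and in day 2 round 2 alone Gapdh gave 0.25 (adjusted p = 0.381).

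**Figure D3:**
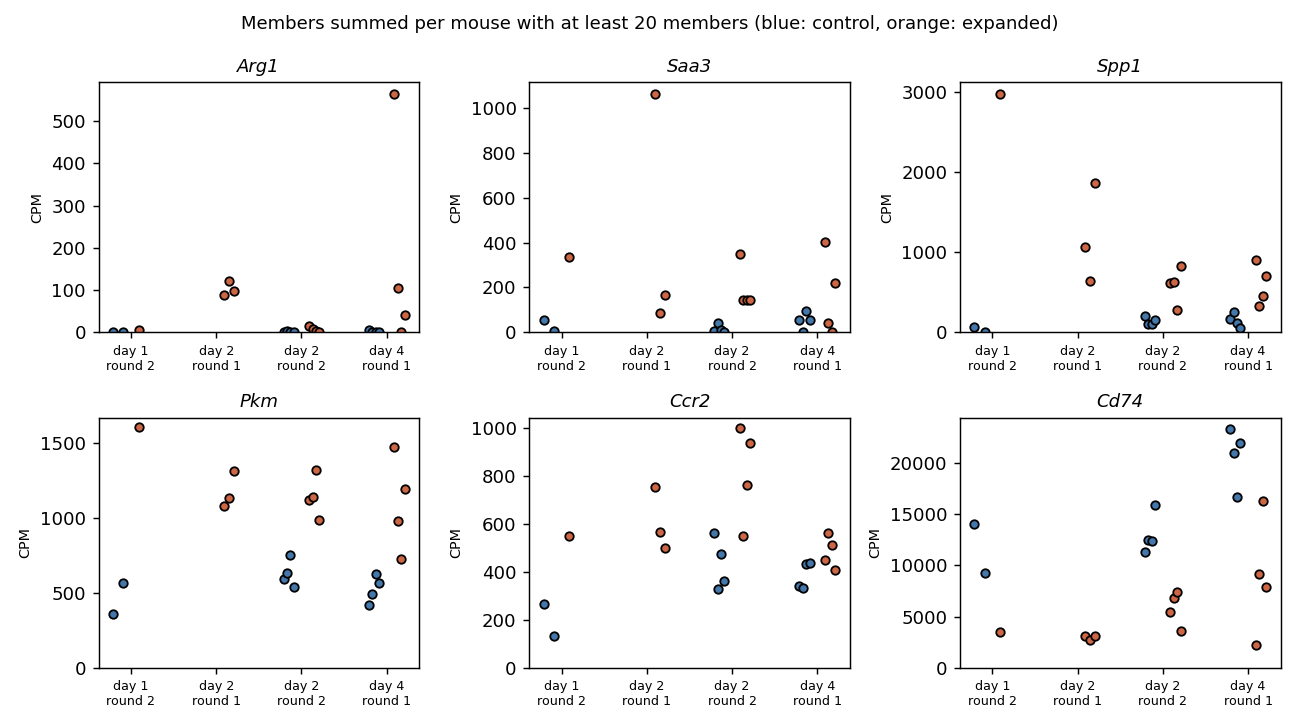
Arg1, Saa3, Spp1, Pkm, Ccr2 and Cd74 in the summed members of each mouse with at least 20 members, in CPM, by day and round (blue points control, orange points expanded). Pkm of every expanded mouse except the lowest, at 728 CPM, lies above the highest control mouse, at 754 CPM, and Cd74 of the control mice ranges from 9239 to 23330 CPM.

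A few interferon-induced genes rose. Ifit1, a sensor of foreign RNA ends, was at 4.89, 2.69, 0, 5.55 and 6.65 CPM in control and 16.2, 9.22, 42, 29.8 and 48.7 CPM in expanded libraries. The arms did not overlap and the levels were low (log2 fold change 2.55 ± 0.33, adjusted p = 0.0141), and it was not tested between mice. Ifit3 was at 2.45, 5.38, 0, 8.49 and 16.2 CPM in control and 6.66, 6.41, 35.5, 38.9 and 48 CPM in expanded libraries, which overlapped on day 1 (1.70 ± 0.29, adjusted p = 0.0277, or 0.0517 with the block, and 1.79 ± 0.64, adjusted p = 0.0658, between mice). Between mice, 3 of 17 tested interferon genes were higher, the oligoadenylate synthetase relative Oasl2 (1.82), the antiviral enzyme Rsad2 (1.83) and Ifit2 (1.73), none was lower, and the median was 0.67. Oasl2 gave 1.35 (adjusted p = 0.264) and Rsad2 1.45 (adjusted p = 0.39) without the mice of day 2 round 2. Isg15 gave 1.10 ± 0.40 with an adjusted p of 0.0657. Dhx58, an RNA helicase of the RIG-I family outside the list, rose by 1.78 ± 0.31 between libraries (adjusted p = 0.0314) and 2.11 ± 0.32 between mice (adjusted p = 0.000181).

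The 250 bases upstream of the RefSeq starts of Ifit1, Ifit3 and Saa3 (build GRCm38.p6) are shown because, among the windows searched for genes that rose, they held the most motif matches, so the choice rests on the matches. Capitals mark matches on either strand to the interferon-stimulated response element (ISRE, searched as TTTC, any 2 bases, TTTC), the C/EBP site (TTGC, any 2 bases, AA) or the AP-1 site (TGA, any base, TCA). The NF-kappaB site (GGGA, any 2 bases, TTCC) was also searched. Ifit1 is at chr19:34640639-34640888 on the + strand, Ifit3 at chr19:34583279-34583528 on the + strand and Saa3 at chr7:46715677-46715926 on the - strand.
Ifit1: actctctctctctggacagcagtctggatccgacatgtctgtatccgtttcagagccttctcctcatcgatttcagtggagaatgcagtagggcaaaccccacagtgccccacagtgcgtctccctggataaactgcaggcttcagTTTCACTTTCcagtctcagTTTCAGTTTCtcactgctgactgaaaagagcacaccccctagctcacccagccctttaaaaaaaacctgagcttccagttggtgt
Ifit3: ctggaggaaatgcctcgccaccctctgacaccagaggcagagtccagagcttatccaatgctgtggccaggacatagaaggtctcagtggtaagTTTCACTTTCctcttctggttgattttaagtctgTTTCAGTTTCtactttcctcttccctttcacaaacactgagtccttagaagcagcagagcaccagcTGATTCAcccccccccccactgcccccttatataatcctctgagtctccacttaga
Saa3: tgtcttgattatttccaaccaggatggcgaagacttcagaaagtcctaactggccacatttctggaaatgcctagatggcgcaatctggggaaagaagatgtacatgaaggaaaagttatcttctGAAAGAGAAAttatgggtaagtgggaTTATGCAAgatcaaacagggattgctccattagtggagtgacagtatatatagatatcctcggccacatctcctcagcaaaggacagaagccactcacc
Counted from the start of the gene, Ifit1 held the ISRE letters at -104 and -85 and Ifit3 at -156 and -122, with an AP-1 match at -56. Saa3 held a C/EBP match at -99 and an ISRE match at -125. Over 32851 RefSeq promoters of the same length, 2.98% held the ISRE letters, 9.56% the C/EBP letters, 6.75% the AP-1 letters and 1.21% the NF-kappaB letters. Of the other genes searched, the 2 windows of Spp1 held an ISRE match at -157 and a C/EBP match at -156, that of Tgfbi an ISRE match at -194, and those of Timp1 and Wfdc17 none. The matches describe the letters of these windows and not binding.

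Genes of MHC class II antigen presentation fell between mice, 5 of 10 tested. Cd74, the invariant chain that escorts MHC class II, was at 9306, 10723, 11125, 13003 and 21065 CPM in control and 11414, 3810.2, 3048, 6143 and 6568 CPM in expanded libraries. It was lower in 4 of 5 pairs, the exception being day 1 round 1, and the library test did not call it (-1.11 ± 0.34, adjusted p = 0.157). Between mice it ran from 9239 to 23330 CPM in control and from 2223 to 16306 CPM in expanded animals (log2 fold change -1.33 ± 0.23, adjusted p = 0.000687). A Cd74 UMI was found in 77.3 to 97.5% of control and 50.9 to 79.4% of expanded members. None of the 10 rose, with a median of -0.94, and those that fell were, beside Cd74, the class II chains H2-Aa (-1.07) and H2-Ab1 (-1.24) and the peptide loaders H2-DMa (-1.12) and H2-DMb1 (-0.74). B cell genes, another source of class II, summed to 31.3 to 67.2 CPM in control and 4.01 to 26.6 CPM in expanded members. Dendritic cell genes, a further source, were lower in expanded members in all 5 pairs, at 294, 186, 89.5, 215 and 227 CPM in control and 197, 93.8, 68.6, 189 and 92 CPM in expanded libraries, and their part in the class II levels was not tested. The calls of H2-Aa and H2-Ab1 were lost in 3 of 8 and 3 of 8 alternatives (adjusted p up to 0.233 and 0.17).

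Complement C1q genes fell between mice, and the library comparison did not call C1qa, C1qb or C1qc. The C1q chains C1qa, C1qb and C1qc gave -1.74 ± 0.40, -2.25 ± 0.42 and -1.78 ± 0.40 between mice (adjusted p = 0.00536, 0.00136 and 0.00451). C1qb was at 249.6, 471, 498, 289.9 and 561 CPM in control and 441, 38.5, 20.7, 24.5 and 189 CPM in expanded libraries, where the expanded library of day 1 round 1 lay within the control range and the others below it. On day 1 round 1, which had no hashtags and so no part in the mouse comparison, the expanded library was the higher of the pair. Of 10 tested resident and complement genes, 5 were lower and 1 higher, with a median of -1.18. The ligand Gas6 (-1.54) and the selenium carrier Selenop (-1.15) were the other genes that fell, and the transcription factor Maf rose (0.88 ± 0.21, adjusted p = 0.00727). The summed resident marker genes, at 135, 80.7, 134, 108 and 57.6 CPM in control and 106, 47.3, 78.8, 40 and 43.8 CPM in expanded members, were also lower in all 5 pairs, although the rule limited 4 of the 7 in both arms alike. The part of resident macrophage RNA in these levels was not tested. On day 4 alone C1qa gave -0.95 (adjusted p = 0.209) and C1qc -0.94 (adjusted p = 0.198). The call of Maf was lost in 3 of 8 and that of Selenop in 3 of 8 alternatives (adjusted p up to 0.2 and 0.0961). Among alternative activation genes 3 of 8 tested were lower, Fcrls (-3.27, adjusted p = 4.06e-05) and the lectins Clec10a (-1.54) and Mgl2 (-1.48), with a median of -1.06. The call of Fcrls was kept in 8 of 8 alternatives, whereas those of Clec10a and Mgl2 were lost in 4 of 8 and 6 of 8 (adjusted p up to 0.291 and 0.331). Retnla, a secreted product of alternatively activated macrophages, was near absent, at most 11.4 CPM in a library, and of that list Arg1 alone rose in the library comparison.

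**Figure D4:**
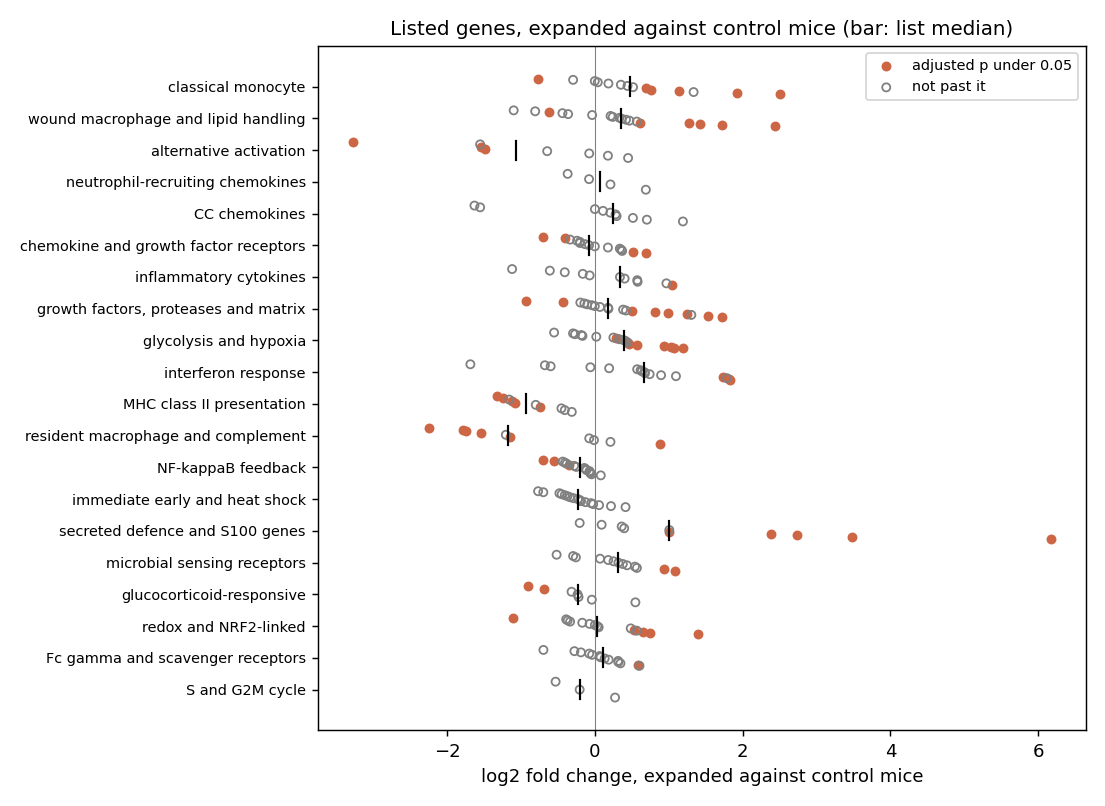
Log2 fold changes between expanded and control mice for the members of each gene list, with filled points for genes past an adjusted p of 0.05 and a bar at the list median. The called glycolysis, interferon and secreted defence genes lie to the right of 0 and the called MHC class II genes to the left.

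Tnip3, Stap1 and Abca9 fell in both comparisons. Tnip3, a partner of the NF-kappaB brake A20, was at 389, 342, 419.7, 239.6 and 403 CPM in control and 183, 119, 109, 106 and 88.4 CPM in expanded libraries, with no overlap (-1.53 ± 0.21, adjusted p = 0.0146, and -1.67 ± 0.20, adjusted p = 2.21e-05, between mice). Stap1, an adaptor protein, was at 164, 105, 67.2, 111 and 99 CPM in control and 35.2, 21.2, 29.9, 54.8 and 30.4 CPM in expanded libraries, also apart (-1.90 ± 0.28, adjusted p = 0.0158). Abca9, a transporter of the ABC family, was at 51.4, 26.9, 61.6, 55.8 and 81.2 CPM in control and 17.1, 4.41, 8.78, 12.5 and 11.9 CPM in expanded libraries (-2.46 ± 0.33, adjusted p = 0.0146, and -2.35 ± 0.26, adjusted p = 6.8e-06, between mice). Among genes with the same sign in all 5 pairs and at least 20 CPM, the largest falls between mice were those of the lysozyme Lyz1 (-3.47 ± 0.70), which can share reads with its near copy Lyz2, and the membrane proteins Tmem176a (-2.63 ± 0.40) and Tmem176b (-2.41 ± 0.35). Lyz1 gave -2.62 (adjusted p = 0.134) without the mice of day 4, and the other 2 were kept in all alternatives run between mice. The immune cell receptors Slamf7 (-1.66) and Slamf8 (-1.60), the receptor chain Ramp1 (-1.78) and the transcription factor Pou2f2 (-1.63) also fell between libraries (log2 fold changes between libraries), as did the receptor kinase Axl (-1.56), the stem cell antigen Cd34 (-2.11), the stress-induced cytokine Gdf15 (-1.79), the sodium pump subunit Fxyd2 (-2.34) and Adam23 (-2.30), and the inhibitory receptor Cd300lf (1.90) and the surface protein Cd24a (1.78) rose. Of 16 NF-kappaB feedback genes, 3 fell between mice, Nfkb1 (-0.71), Bcl3 (-0.55) and Nfkbie (-0.35), with a median of -0.20, and Nfkb1 gave -0.34 (adjusted p = 0.302) on day 4 alone.

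Chemokines and cytokines were mostly not called. Cxcl2, which attracts neutrophils, was at 16294, 22212, 11936, 13275 and 13315 CPM in control and 9958, 20301, 16003, 13248 and 15211 CPM in expanded libraries, and the log2 fold change between mice was -0.08 ± 0.14 (adjusted p = 0.765). None of 4 neutrophil-recruiting and none of 10 CC chemokines tested between mice was called. Between libraries 1 of 11 CC chemokines was called, Ccl5, which was lower with expansion. Its call was lost in 4 of 13 alternatives (adjusted p up to 0.283). The monocyte chemokine Ccl2 gave 0.70 ± 0.24 (adjusted p = 0.0524). Of 11 cytokines, the TNF family ligand Tnfsf9 alone was called (1.05 ± 0.21, adjusted p = 0.00237), beside 13.7% of all genes between mice. It gave 0.77 (adjusted p = 0.17) without the mice of day 2 round 2. Il1b gave -0.41 ± 0.29 (adjusted p = 0.381), Tnf 0.57 ± 0.34 (adjusted p = 0.274) and Il10 -1.12 ± 0.50 (adjusted p = 0.14). None of 17 immediate early and heat shock genes and none of 3 tested cycle genes was called. Among redox genes 4 of 15 rose, glutathione reductase Gsr (1.40), the cystine importer Slc7a11 (0.75) and the peroxiredoxins Prdx5 (0.65) and Prdx6 (0.53), and the metallothionein Mt2 fell (-1.11). Microbial sensing had 2 of 13 higher, Trem3 (1.09) and Tlr13 (0.94), glucocorticoid-responsive genes had 2 of 7 lower, Errfi1 (-0.91) and Per1 (-0.68), and Fc and scavenger receptors had 1 of 14 higher, the lectin Clec4a2 (0.58). Over all genes, 6.99% were higher and 6.75% lower, so the count of Fc and scavenger receptors is near the share of all genes.

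Whether the difference between arms changed from day 1 to day 4 was tested with an arm by log2(day) term. No gene of 9195 passed (0%), and 304 had an unadjusted p under 0.05 in edgeR's test, while with no filter on low counts 77 genes passed. Day 4 had 1 library per arm, so the term leans on the replicates of days 1 and 2. In simulated counts the term recovered 8% of genes with an added log2 effect of 1 and 62% of those with 2. Smaller changes across days could thus be missed.

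The difference between arms was then compared with that in resident macrophages of the same libraries, over 4 control and 4 expanded libraries with at least 20 cells of each population. The mean levels printed beside it are over all 5 libraries of an arm. They include 2 libraries left out of the test, control day 2 round 1 with 19 members and expanded day 2 round 2 with 6 residents. Of 9166 genes, 25 (0.273%) differed, 23 of them with the higher expanded-to-control ratio in the members. Hmox1, which breaks down haem, averaged 326 ± 154 CPM in control and 315 ± 105 CPM in expanded members (SD, n = 5 each), whereas resident macrophages averaged 1607 and 329.9 CPM. The members' log2 fold change exceeded the residents' by 2.20 ± 0.26 (adjusted p = 0.00296). The heat shock genes Hspa1b (2.18 ± 0.31, adjusted p = 0.0123) and Hspa1a (1.75 ± 0.30, adjusted p = 0.0297) and the early response gene Ier3 (1.06 ± 0.18, adjusted p = 0.0297) differed in the same direction. Hspa1b averaged 242 CPM in control and 55.1 CPM in expanded residents, and 51.3 ± 26.4 and 53.5 ± 27.5 CPM in members (SD, n = 5 each). The chemokines Ccl9 (1.09 ± 0.19, adjusted p = 0.0297) and Cxcl5 (5.55 ± 0.93, adjusted p = 0.0297) also differed. Several of the largest differences were in genes of other cell types. Hbb-bs (9.09 ± 1.39), a haemoglobin gene, had 5954 of 5971 and 2512 of 2544 UMIs in 1 cell each of the expanded day 2 libraries. The count was 5 without the expanded library of day 2 round 1, 12 and 13 without the control libraries of day 4 and of day 1 round 1, and 51 and 55 without the expanded libraries of day 4 and of day 1 round 1.

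Among themselves, the members split by Ly6c2 and Plac8 differed in other monocyte genes and in macrophage genes. Whether they form a graded series or separate groups was not tested. Those with at least 3 UMIs of Ly6c2 and Plac8 were set beside the others within the 8 libraries that had at least 20 cells of each kind; as the genes used to divide them were part of the rule, these values carry no test. Hp, Ifitm6 and Vcan marked one side and Mrc1 and Pf4 the other. Of 5207 genes at 20 CPM or more, 6.36% were higher in the monocyte-gene cells of all 8 libraries and 7.93% lower, with a median log2 ratio of -0.07. Of 14 classical monocyte genes 10 were higher in all 8 libraries. Hp averaged 275 ± 148 CPM against 14.7 ± 7.41 CPM (SD over 8 libraries), the membrane protein Ifitm6 147 ± 74.4 CPM against 4.25 ± 2.97 CPM and Vcan 1050.2 ± 703 CPM against 459 ± 256 CPM. Interferon genes were higher in these cells too, 6 of 16 in all 8 libraries with a median log2 ratio of 0.94, and Irf7, the factor that amplifies the interferon response, averaged 128 ± 63.2 CPM against 30.3 ± 28.6 CPM. Saa3 averaged 552 ± 469.7 CPM against 143 ± 144 CPM.

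A few macrophage genes were higher in the other members of every library. The mannose receptor Mrc1 averaged 739 ± 247 CPM against 1789 ± 589.8 CPM and the chemokine Pf4 454 ± 373 CPM against 1919.6 ± 949.7 CPM, monocyte-gene cells first. Of 9 alternative activation genes 4 were lower in the monocyte-gene cells of all 8 libraries (Mrc1, Mgl2, Ccl17 and Fcrls), and of 10 MHC class II genes 4 were (H2-Aa, H2-Ab1, H2-Eb1 and Cd74). So were 4 of 19 wound and lipid genes and 3 of 11 resident and complement genes, beside 7.93% of all genes. Fabp5 averaged 1699.8 ± 1085 CPM against 2803 ± 1812 CPM, the elastase Mmp12 92 ± 99.4 CPM against 356 ± 278 CPM and the lysosomal protease Ctsb 1070.1 ± 182 CPM against 1944 ± 574 CPM. Genes that rose with expansion did not all follow this split: Spp1 averaged 854 ± 886 CPM against 823 ± 1002 CPM, Arg1 46.1 ± 85.2 CPM against 53.6 ± 99.8 CPM and Pkm 986 ± 427 CPM against 926 ± 359 CPM, with the monocyte-gene cells higher in 3, 4 and 4 of the 8 libraries.

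**Figure D5:**
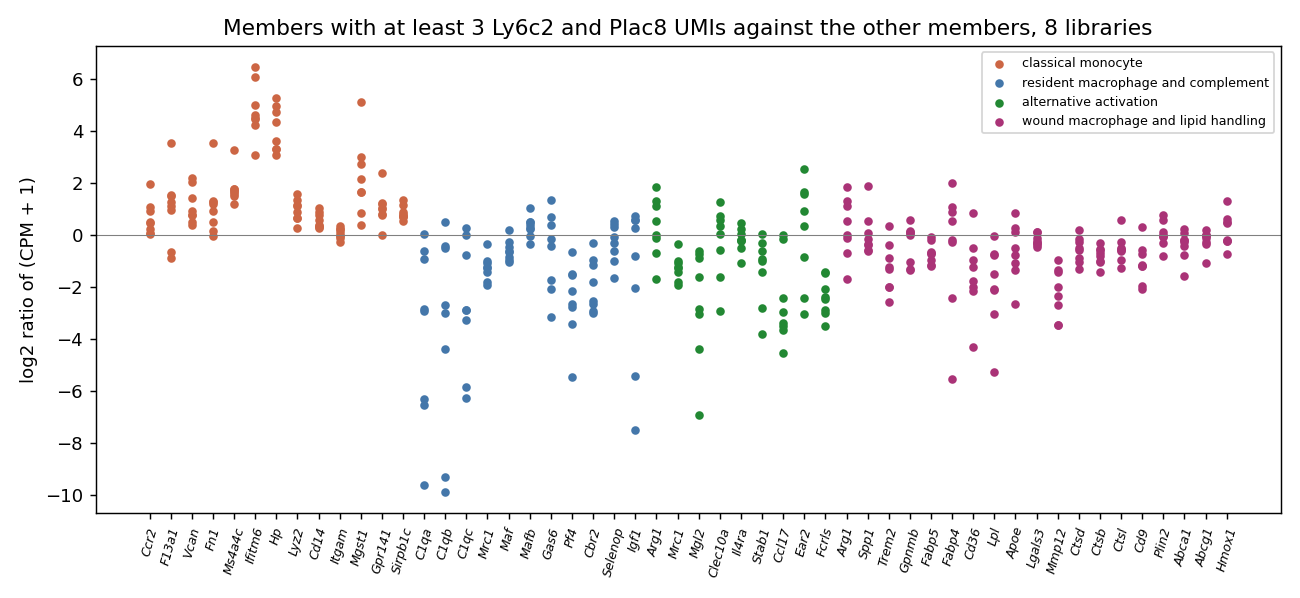
Log2 ratio of (CPM + 1) between members with at least 3 UMIs of Ly6c2 and Plac8 and the other members, with 1 point per library for 8 libraries and genes coloured by list. Classical monocyte genes such as Hp and Ifitm6 lie above 0 and Mrc1 and Pf4 below 0 in all 8 libraries.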

How the data were processed

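The authors deposited raw UMI counts per gene and barcode, made with Cell Ranger 6.1.2 on mm10, per the submitters' processing notes. Members and gene lists were chosen with earlier results of these data known. Hashtags were assigned with HTODemux (Seurat 5.3.0, quantile 0.99), which gave 2085 members a mouse. Scrublet (scanpy 1.11.5) marked 29 members as doublets, which were left out only in an alternative. Member counts were summed per library or mouse with at least 20 members, passed through filterByExpr and TMM scaling in R 4.3.3, and arms were compared in edgeR 4.0.16 (quasi-likelihood) with a factor for day (libraries) or round (mice) and Benjamini-Hochberg adjustment at 0.05. Rule genes were kept out of calls. DESeq2 1.42.0 was an alternative. Shares were compared by permutation tests (scipy 1.17.1). Libraries held 17726739 to 75470722 UMIs, of which 178699 to 10246860 were in members. Libraries pool mice, so p-values over them measure the spread between pools. P-values over mice measure the spread between animals of the same pool, and differences between pools are not in that spread. Named genes were the 12 largest rises and 12 largest falls of a comparison among genes called with the same sign in all 5 pairs and at least 20 CPM (6 each against resident macrophages), the up to 5 largest changes of each list, and other list members where a list is accounted for. Libraries of 1 day and round deviated together from their arm means in all 4 pairs fitted (correlations of 0.108 to 0.210). Differences between days were not removed from these correlations, so they do not show sharing by round beyond the day. The pair was also fitted as a replicate block. For the control libraries of day 1 round 2 the titles and library names in the labels disagree, and the library name was used. The tests were tried on simulated data. There 7.63% of library calls, 1.09% of mouse calls, 9.09% of arm by day calls and 8.65% of calls against resident macrophages were false. Some listed genes are counted but not reported here.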

Additional observations from a re-analysis of the deposited data

Results flagged for a closer look

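Some mice stood apart from the rest of their arm and day; of 39 sets of mice examined, chance alone would set about 5% apart. On day 2, control mouse 2 of round 2 had 3.97 CPM of Arg1 and the other 3 control mice 0, and control mouse 3 of round 2 had 14.3 CPM of Wfdc21 and the others 0. On day 4, control mouse 1 had 5.22 CPM of Arg1 and the others 0. Each of these values rests on few UMIs. Among expanded mice of day 2, mouse 1 of round 1 had 1059.8 CPM of Saa3 against 87.9 to 350.4 CPM in the other 6, and mouse 2 of round 1 had 273.8 CPM of Timp1 against 96.7 to 162 CPM. Expanded mouse 1 of day 4 had 70.9 CPM of Wfdc21 against 5.04 to 15.5 CPM in the other 3.

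In 8 genes named by the rule, the log2 difference between arms differed between members and resident macrophages by a test of that difference. It was higher in the members by 9.09 for Hbb-bs, 7.34 for Coch, 7.01 for the small proteoglycan Fmod, 6.47 for Tnc, 6.04 for the chemokine Ccl19 and 5.89 for the smooth muscle actin Acta2. It was lower by -3.62 for Adam23 and -1.32 for Syngr2. Over all 5 libraries of an arm, residents averaged 25.3 CPM in control and 5.03 CPM in expanded libraries for Hbb-bs and 117 and 9.48 for Coch. They averaged 28.4 and 0.429 CPM for Fmod, 12.5 and 4.72 for Tnc, 17.8 and 0.429 for Ccl19 and 10.9 and 0.498 for Acta2. The members' log2 fold changes between libraries were 3.56 for Coch and 3.61 for Tnc. Those of Hbb-bs (2.59), Fmod (2.14), Ccl19 (-0.22) and Acta2 (0.64) were not called. Adam23 averaged 62.9 CPM in control and 138 CPM in expanded resident macrophages, and 26.6 ± 18.5 and 2.93 ± 1.69 CPM in members (SD, n = 5 each). The expanded library of day 2 round 2, with 6 resident cells, is in these means but not in the test. Fmod and Acta2 were at most 11.6 and 36.6 CPM in any library of members.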

How the results depend on the processing

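The share of members kept its direction in every alternative run; it was 5.28 points after thinning to 2000 UMIs, and its p passed 0.05 with a replicate block (8.47 points, p = 0.0625, permutation) and without the pair of day 1 round 2 (9.54 points, p = 0.0571, permutation). Leaving out 1 library gave 5.80 to 10.5 points with permutation p from 0.0159 to 0.0794. The difference in the monocyte-gene share turned to -17.6 points after thinning, and to -0.716, -0.597, -1.26 and -3.25 points without the control library of day 1 round 1 or of day 2 round 1, or the expanded library of day 2 round 1 or 2 (range -3.25 to 7.87). The cycling difference was 13.6 points without thinning and ran from -3.51 to -0.737 over left-out libraries. The mouse share differed by 8.11 to 15.9 points over left-out rounds.

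The 91 library calls became 750 with no filter on low counts, 142 with the control library of day 2 round 1 kept, 386 with DESeq2's Wald test, 12 in the other members alone, 2 without the pair of day 4, 79 with a replicate block and 1 to 199 over left-out libraries. The mouse calls, 865, were 291 in round 2 of day 2 alone, 147 on day 4 alone and 232 to 852 over left-out rounds. The arm by day term called 77 genes and the comparison with resident macrophages 441 with no filter; the latter gave 77 with populations under 20 cells kept and 5 to 55 over left-out libraries. No named gene changed sign: of 779 library, 511 mouse and 159 resident comparison values, 299, 128 and 28 lost the call. The alternatives on the 19-member library, populations under 20 cells, single pairs and single rounds were chosen after seeing the data. Between libraries, the replicate block lost 13 of the 35 calls followed. The 19 to 69 members of 4 libraries limit what day 1 and the control arm of day 2 can show.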
